A study of Homo sapiens with 4 samples.

Results

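The genes described here are the amino acid transporters of 7 solute carrier (SLC) families, SLC1, SLC3, SLC6, SLC7, SLC36, SLC38 and SLC43, in SW480, an established human colorectal adenocarcinoma line. They were chosen by symbol, as every gene of the count tables whose name opens with 1 of these family stems and a number. This gave 60 of 19192 genes, of which 7 belong to SLC1, 2 to SLC3, 19 to SLC6, 14 to SLC7, 4 to SLC36, 11 to SLC38 and 3 to SLC43. Among them is SLC7A6OS, the opposite-strand neighbour of SLC7A6, which is not a transporter, which leaves 59 transporter genes. The study compared SW480 cells with the genotype IMP1-/- with wild-type SW480 cells. IMP1, which binds RNA, is the product of the gene IGF2BP1. From each genotype, total RNA and ribosome-protected fragments (RPF, the stretches of mRNA that ribosomes shield from nuclease, here also called footprints) were sequenced, so that mRNA abundance and ribosome occupancy can be set side by side. There were 4 libraries, 1 per genotype and kind, each from 3 pooled culture plates, and the cells carried no other allele or treatment that the labels give.

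Solute carriers of these families move amino acids and related small molecules across the plasma membrane and the lysosomal membrane. SLC1A5 and the SLC38 carriers take up glutamine and other small neutral amino acids together with sodium. The heavy chain SLC3A2 (CD98, also known as 4F2hc) has no transport activity of its own and brings light chains of the SLC7 family to the cell surface, where SLC7A5 exchanges intracellular glutamine for leucine and other essential amino acids and SLC7A11 exchanges glutamate for cystine. Leucine and arginine delivered by these routes act on the kinase complex mTORC1, and a shortage of amino acids induces several of the carrier genes through the transcription factor ATF4. Colorectal cancer cells are known for high levels of SLC1A5, SLC7A5 and SLC3A2.

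Library totals were 4932388 counts for IMP1-/- labelled RNA, 5551479 for wild-type RNA, 3778316 for IMP1-/- labelled RPF and 3782874 for wild-type RPF. With 1 library per group there was no replicate spread to test against, so changes are given with 95% intervals that cover counting error alone, and genotype cannot be told apart from clone, culture or library. The targeted gene checks the labels only in part. IGF2BP1 had 571 reads in the IMP1-/- labelled RNA library and 598 in the wild-type one, a scaled ratio of 1.06 (interval 0.944 to 1.19), and its 149 footprints in IMP1-/- labelled RPF against 285 in wild-type RPF were 52.3% of wild type after scaling (42.6 to 63.9). Because the RNA was not lower, the tested libraries are called IMP1-/- labelled throughout. For wild-type RNA the labels give the line as SW840 in 1 field and as SW480 in the source name, and it was taken as SW480. All 6 epithelial markers examined (EPCAM, KRT8, KRT18, KRT19, CDH1 and CLDN7) had reads in each of the 4 libraries. They summed to 5839 CPM, counts scaled to the library total, in IMP1-/- labelled RNA and 8365 CPM in wild-type RNA. In RPF the sums were 20810 CPM in IMP1-/- labelled and 25390 CPM in wild-type cells. Single epithelial markers moved both ways, with log2 ratios of IMP1-/- labelled over wild type from −0.67 to 1.93 in RNA and −0.39 to 1.995 in RPF. The 5 colonic markers (CDX1, CDX2, VIL1, LGR5 and ASCL2) summed to 35.3 CPM in IMP1-/- labelled RNA and 141 CPM in wild-type RNA, and to 34.9 CPM in IMP1-/- labelled RPF and 164 CPM in wild-type RPF. CDX1 and LGR5 were at 0 in both IMP1-/- labelled libraries and in wild-type RPF, and VIL1 was at 0 in IMP1-/- labelled RPF. The lower colonic markers thus moved with the genotype label and with every transporter change below, and their part in those changes was not tested. Markers of fibroblasts and leukocytes summed to at most 5.47 CPM in any library, and those of endothelium to at most 12.4 CPM.

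A gene was taken as measured in a kind of library when it had at least 50 reads over both genotypes. By that minimum 26 of the 60 symbols were measured in RNA, 25 in RPF and 22 in both, and 29 in at least 1 kind. The 29 are SLC1A1 to SLC1A5, SLC3A2, SLC6A6, SLC6A8, SLC6A9, SLC7A1, SLC7A2, SLC7A4 to SLC7A8 with SLC7A6OS, SLC7A11, SLC36A1, SLC36A4, SLC38A1, SLC38A2, SLC38A5, SLC38A7, SLC38A9, SLC38A10 and SLC43A1 to SLC43A3. SLC1A2, SLC7A7, SLC36A1 and SLC36A4 passed in RNA and not in RPF, and SLC1A3, SLC38A9 and SLC43A3 in RPF and not in RNA. The other 31 symbols had at most 35 reads over both RNA libraries and at most 27 over both RPF libraries. No read was counted in any of the 4 libraries for SLC3A1 (the heavy chain of the renal cystine carrier), SLC7A3, SLC7A9, SLC7A10, SLC7A13, SLC38A3 and SLC38A11. Of the 28-base stretches of SLC3A1, 97.1% also occur in transcripts of other genes, and how reads with several matches were handled is not given. The 0 of SLC3A1 therefore sets no bound on its level. For the other symbols a count of 0 allows a level of up to 3 counts, which is 0.608 CPM in IMP1-/- labelled RNA, 0.540 CPM in wild-type RNA, 0.794 CPM in IMP1-/- labelled RPF and 0.793 CPM in wild-type RPF.

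**Figure D1:**
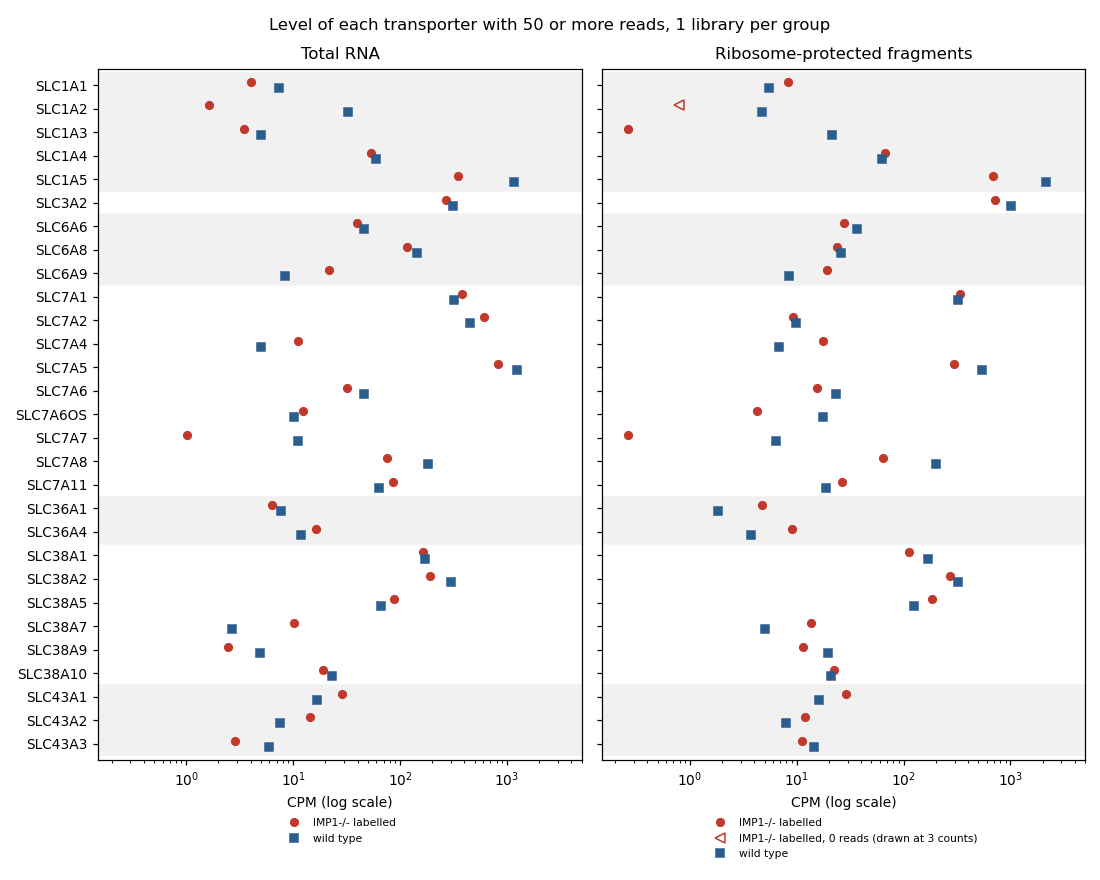
Level in CPM (counts scaled to the library total, log scale) of the 29 symbols with 50 or more reads in RNA (left) or RPF (right), in the IMP1-/- labelled library (red circles) and the wild-type library (blue squares), 1 library each, shaded by family. An open triangle marks 0 reads, drawn at 3 counts (0.794 CPM). SLC1A5 lies at 346 CPM in IMP1-/- labelled and 1166 CPM in wild-type RNA, and at 693 CPM in IMP1-/- labelled and 2165 CPM in wild-type RPF, and SLC1A2, SLC1A3 and SLC7A7 have their IMP1-/- labelled points far to the left of wild type in RNA, RPF or both.

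Levels were compared between genes per length, as RPKM (reads per kb, scaled to the library total) over the coding length for footprints and the transcript length for RNA. Footprints per kb were highest for SLC1A5, SLC3A2 and SLC7A5 in both genotypes. SLC1A5, the sodium-dependent glutamine carrier, had 427 RPKM (95% counting interval 411 to 443) in IMP1-/- labelled RPF and 1334 RPKM (1305 to 1363) in wild-type RPF. SLC3A2 had 423 RPKM (408 to 440) in IMP1-/- labelled RPF and 587 RPKM (569 to 606) in wild-type RPF. The intervals of SLC1A5 and SLC3A2 thus overlapped in the IMP1-/- labelled library, whereas in wild type SLC1A5 lay well above. SLC7A5 followed with 195 RPKM in IMP1-/- labelled and 354 RPKM in wild-type RPF. SLC7A1, the main carrier of arginine and lysine, had 180 RPKM in IMP1-/- labelled and 169 RPKM in wild-type RPF. SLC38A2, a system A carrier of small neutral amino acids, had 178 RPKM in IMP1-/- labelled and 211 RPKM in wild-type RPF. The intervals of SLC7A5, SLC7A1 and SLC38A2 overlapped in the IMP1-/- labelled library and did not in wild type. In RNA per kb of transcript the order was SLC7A5 (184 RPKM), SLC3A2 (134) and SLC1A5 (120) in the IMP1-/- labelled library, and SLC1A5 (405), SLC7A5 (276) and SLC3A2 (158) in wild type. This order depended on the length used. With coding length for both kinds, SLC7A5 stood above SLC1A5 in wild type, and SLC7A2 stood above SLC3A2 in both genotypes. All 60 symbols together took 0.345% of IMP1-/- labelled and 0.476% of wild-type RNA counts, and 0.303% of IMP1-/- labelled and 0.519% of wild-type RPF counts. Of the footprints on the 60, SLC1A5, SLC3A2 and SLC7A5 held 56.5% (Wilson 95% interval 55.6 to 57.4) in the IMP1-/- labelled library and 71.4% (70.8 to 72.1) in wild type.

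Promoters of these 3 genes, which carried most of the transporter footprints, are shown as 250 bases before to 50 bases after the RefSeq start (GRCh38.p14), 5′ to 3′ on the strand of the gene. Capitals mark 2 motifs searched on both strands: TGATGNAA, the composite site of ATF and C/EBP factors known from amino acid response genes, and TGACNNNGC, the core of the antioxidant response element. SLC1A5 lies at chr19:46788545-46788844 (minus strand), SLC3A2 at chr11:62881449-62881748 (plus strand) and SLC7A5 at chr16:87869458-87869757 (minus strand).
SLC1A5: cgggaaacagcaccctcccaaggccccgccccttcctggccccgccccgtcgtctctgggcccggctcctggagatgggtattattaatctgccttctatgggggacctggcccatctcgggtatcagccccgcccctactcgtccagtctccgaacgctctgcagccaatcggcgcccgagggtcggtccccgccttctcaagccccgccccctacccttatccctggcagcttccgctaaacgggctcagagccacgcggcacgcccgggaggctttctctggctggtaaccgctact
SLC3A2: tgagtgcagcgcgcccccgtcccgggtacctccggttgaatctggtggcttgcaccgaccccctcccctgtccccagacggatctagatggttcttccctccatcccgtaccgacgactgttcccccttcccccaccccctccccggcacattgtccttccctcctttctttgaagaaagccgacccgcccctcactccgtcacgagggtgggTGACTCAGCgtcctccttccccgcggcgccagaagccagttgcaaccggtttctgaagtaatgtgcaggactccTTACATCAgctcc
SLC7A5: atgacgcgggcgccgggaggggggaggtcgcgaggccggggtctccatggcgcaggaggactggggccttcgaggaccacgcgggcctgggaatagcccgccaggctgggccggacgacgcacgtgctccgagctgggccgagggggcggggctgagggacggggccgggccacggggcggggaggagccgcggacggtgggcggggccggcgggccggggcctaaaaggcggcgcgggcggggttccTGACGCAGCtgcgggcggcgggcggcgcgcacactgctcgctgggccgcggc
The SLC1A5 window held neither motif. SLC3A2 held both, without overlap: the antioxidant core before its start, and 37 bases after it the composite site on the minus strand, printed here as its reverse complement. SLC7A5 held an antioxidant core whose first base lies 2 bases before the start. Of the 45 transporter symbols with a promoter in the table, 4 (8.89%) held the composite motif, SLC1A3, SLC3A2, SLC7A1 and SLC38A1, against 3.62% of 35116 promoters. The antioxidant core was found in 5 of 45 (11.1%), SLC3A2, SLC7A1, SLC7A5, SLC7A6 and SLC7A7, against 13.3% of all promoters. These matches describe the letters of the windows only. The start of the counted transcript was that of RefSeq for SLC1A5 and lay 19 bases from it for SLC7A5, while the counted SLC3A2 transcript begins 25555 bases upstream of the window's start.

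In the comparison of IMP1-/- labelled with wild-type cells, a change is the log2 ratio of scaled counts, IMP1-/- labelled over wild type, and a gene was called when the ratio was at least 1.5-fold in either direction and its interval excluded no change. The transporters were divided: SLC1A5, SLC7A5 and SLC7A8 were called lower in RNA and in RPF, and SLC6A9, SLC7A4, SLC38A7 and SLC43A1 were called higher in both. In RNA, 5 of 26 measured symbols were called higher (19.2%, against 16.2% of all 10875 genes measured) and 7 lower (26.9%, against 17.8%), with a median change of −0.20 against −0.01 over all genes. In RPF, 4 of 25 were called higher (16%, against 19.0% of 9794 genes) and 8 lower (32%, against 20.1%), with a median of −0.12 against −0.0007. In bulk libraries, fewer cells with a transcript and less of it per cell cannot be told apart. Some measured symbols had under 25 reads in the lower library and passed the minimum only through the higher one. In RNA these were SLC38A7, through the IMP1-/- labelled library, and SLC1A1, SLC1A2 and SLC7A7, through the wild-type library. Without these 4, a count added after seeing the data, 4 of 22 were called higher and 4 lower in RNA (18.2% each), against 15.3% and 16.4% of the 10302 genes with at least 25 reads in each RNA library. The share called lower in RNA was thus near that of all genes. In RPF they were SLC1A1 and SLC38A7, through the IMP1-/- labelled library, and SLC1A3 and SLC7A6OS, through the wild-type library. Without them 3 of 21 were called higher (14.3%, against 17.2% of 9067 genes) and 6 lower (28.6%, against 18.5%). Of the 8 called lower in RPF, SLC7A6 and SLC38A1 stood at the threshold, 1.505-fold and 1.504-fold lower. Both lost the call when libraries were scaled by totals without the MTRNR2L genes, which left 6 of 25 called lower. Summed over the 60, RNA had 17018 reads in IMP1-/- labelled and 26432 in wild-type cells, a scaled ratio of 0.715 (0.701 to 0.729). RPF had 11436 reads in IMP1-/- labelled and 19618 in wild-type cells, a ratio of 0.583 (0.569 to 0.596). Without SLC1A5 the ratio of the sums was 0.852 in RNA and 0.771 in RPF.

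**Figure D2:**
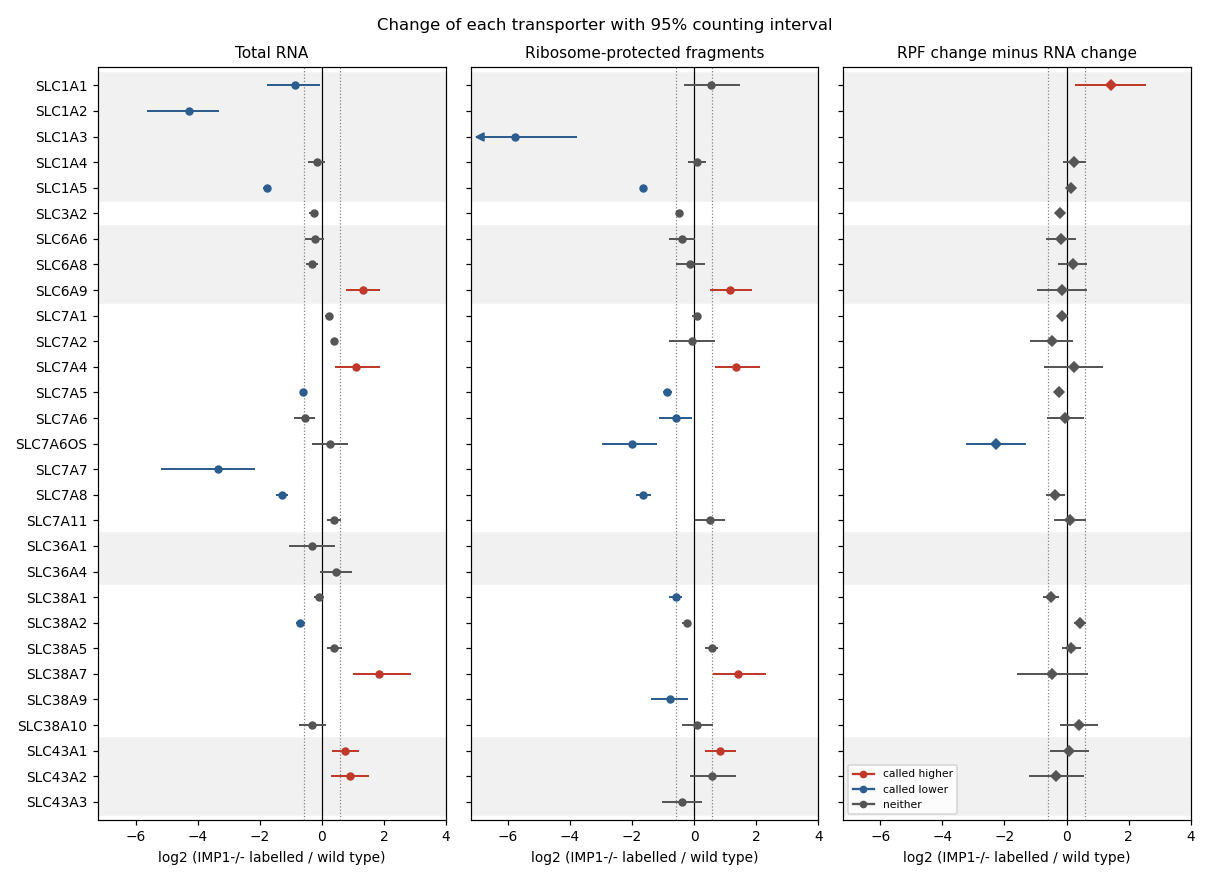
Change of each measured symbol, log2 of IMP1-/- labelled over wild type, with 95% counting intervals, in RNA (left), RPF (middle) and RPF minus RNA (right), 1 library per group. Dotted lines mark 1.5-fold, red and blue mark genes called higher and lower, symbols under 50 reads are left blank, and an arrow marks an interval that runs beyond the axis. SLC1A5, SLC7A5 and SLC7A8 are blue in the left and middle panels, and the right panel holds a single red point (SLC1A1) and a single blue one (SLC7A6OS).

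The SLC1 family was lower in sum, and most of its reads were those of SLC1A5. The family had 2014 RNA reads in IMP1-/- labelled and 7058 in wild-type cells, a scaled ratio of 0.317 (0.301 to 0.333), and 2905 footprints in IMP1-/- labelled and 8549 in wild-type cells, a ratio of 0.340 (0.326 to 0.354). SLC1A5 (ENST00000542575, chromosome 19, 46774883 to 46788594, minus strand, GRCh38, 8 exons) had 1704 reads in IMP1-/- labelled RNA and 6474 in wild-type RNA. Its footprints numbered 2617 in IMP1-/- labelled cells and 8190 in wild-type cells. The changes were −1.77 (−1.85 to −1.70) in RNA and −1.65 (−1.71 to −1.58) in RPF, which are 3.42-fold and 3.13-fold lower. An annotated antisense transcript, AC008622.2, covers 27.1% of the counted SLC1A5 transcript on the opposite strand, and the labels do not say whether counting used strand. SLC1A4, the neutral exchanger closest to SLC1A5 in the family, had 265 RNA reads in IMP1-/- labelled and 331 in wild-type cells, and 254 footprints in IMP1-/- labelled and 239 in wild-type cells. Its intervals included no change in both kinds (−0.17, −0.41 to 0.07, and 0.09, −0.17 to 0.35).

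Of the sodium-dependent glutamate carriers of SLC1, SLC1A1 and SLC1A2 were called lower in RNA and SLC1A3 in RPF. Each passed the minimum in that kind only through the wild-type library, and they did not change alike in both kinds. SLC1A2, the main glutamate carrier of astrocytes, had 8 reads in IMP1-/- labelled RNA and 182 in wild-type RNA, 19.3-fold lower (−4.27, −5.59 to −3.35). It had 0 footprints in IMP1-/- labelled and 18 in wild-type cells, at least 6.00-fold lower against the floor of 3 counts in the library at 0. SLC1A3, the other glial glutamate carrier, had 1 footprint in IMP1-/- labelled cells and 81 in wild-type cells (−5.76, −11.66 to −3.82). SLC1A3 had 17 RNA reads in IMP1-/- labelled and 28 in wild-type cells, under the minimum, and its interval in RNA included no change (−0.55, −1.53 to 0.35), so its footprints and RNA are not set against each other. SLC1A1, the glutamate and aspartate carrier of epithelia and neurons, had 20 reads in IMP1-/- labelled RNA and 41 in wild-type RNA (−0.87, −1.73 to −0.08). SLC1A1 had 31 footprints in IMP1-/- labelled and 21 in wild-type cells (0.55, −0.28 to 1.43), so the gene was called lower in RNA alone. The cerebellar carrier SLC1A6 and the retinal carrier SLC1A7 had at most 2 reads in any library. Neuronal markers (SNAP25, SYP and RBFOX3) summed to 8.11 CPM in IMP1-/- labelled and 10.1 CPM in wild-type RNA, and to 39.4 CPM in IMP1-/- labelled and 11.1 CPM in wild-type RPF, with RBFOX3 at 0 in all 4 libraries. Their part in the values of SLC1A1, SLC1A2 and SLC1A3 was not tested.

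The heavy chain SLC3A2 changed less than its main light chains. SLC3A2 (ENST00000377889, chromosome 11, 62856144 to 62888853, plus strand, 10 exons) had 1314 reads in IMP1-/- labelled RNA and 1749 in wild-type RNA (−0.26, −0.37 to −0.16). It had 2726 footprints in IMP1-/- labelled and 3785 in wild-type cells (−0.47, −0.55 to −0.40). Both intervals lay below no change and both ratios were under 1.5-fold, so the gene was not called.

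Among the light chains that pair with SLC3A2, SLC7A5, SLC7A8 and SLC7A7 were lower, and SLC7A11 was not. SLC7A5 (ENST00000261622, chromosome 16, 87830023 to 87869488, minus strand, 10 exons), the exchanger of large neutral amino acids, had 4111 reads in IMP1-/- labelled RNA and 6946 in wild-type RNA, and 1120 footprints in IMP1-/- labelled and 2036 in wild-type cells. Its changes were −0.61 (−0.66 to −0.55) and −0.86 (−0.97 to −0.76). Of its 28-base stretches, 8.85% also occur in transcripts of other genes, among them the copies SLC7A5P2 and SMG1P3. SLC7A8 (chromosome 14, 23125295 to 23183640, minus strand), a second exchanger of neutral amino acids found at the basolateral side of intestinal and renal epithelia, had 375 RNA reads in IMP1-/- labelled and 1015 in wild-type cells, and 245 footprints in IMP1-/- labelled and 765 in wild-type cells. It was 2.43-fold lower in RNA (−1.28, −1.46 to −1.11) and 3.12-fold lower in RPF (−1.64, −1.86 to −1.43). SLC7A7 (chromosome 14, 22773225 to 22815803, minus strand), an exporter of cationic amino acids in epithelia and macrophages, had 5 reads in IMP1-/- labelled RNA and 62 in wild-type RNA, 10.2-fold lower (−3.36, −5.15 to −2.18). SLC7A7 had 1 footprint in IMP1-/- labelled and 24 in wild-type cells, under the minimum.

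SLC7A11, the cystine and glutamate exchanger that supplies glutathione synthesis, had 421 RNA reads in IMP1-/- labelled and 356 in wild-type cells, and 101 footprints in IMP1-/- labelled and 71 in wild-type cells. Its changes of 0.39 (0.19 to 0.60) and 0.50 (0.06 to 0.97) lay above no change and under 1.5-fold. SLC7A6, a further exchanger of cationic and neutral amino acids, had 156 RNA reads in IMP1-/- labelled and 254 in wild-type cells (−0.55, −0.85 to −0.26) and 59 footprints in IMP1-/- labelled and 89 in wild-type cells (−0.59, −1.09 to −0.10). It was called lower in RPF, where its ratio of 1.505-fold stood at the threshold and lost the call when libraries were scaled by totals without the MTRNR2L genes or with a prior count of 2. SLC7A6OS lies on the opposite strand and shares 3371 exonic bases with SLC7A6, 53.4% of the SLC7A6 transcript and 80.5% of its own. SLC7A6OS had 61 RNA reads in IMP1-/- labelled and 57 in wild-type cells (0.25, −0.30 to 0.80) and 16 footprints in IMP1-/- labelled and 66 in wild-type cells (−2.01, −2.93 to −1.24). Reads of the shared bases cannot be told apart between this pair unless strand was used.

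**Figure D3:**
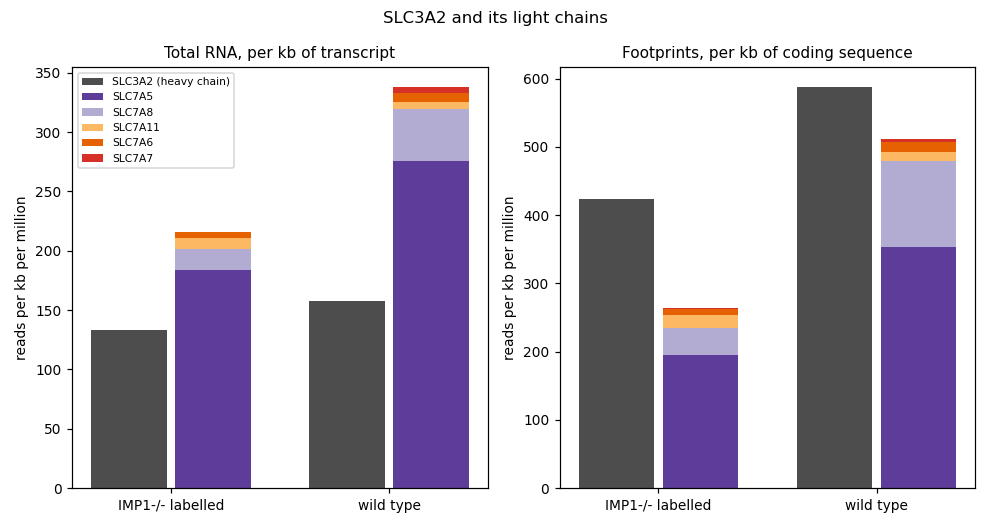
Heavy chain SLC3A2 (grey bars) beside its stacked light chains (colours), in RPKM (reads per kb, scaled to the library total), for IMP1-/- labelled and wild-type RNA per kb of transcript (left) and RPF per kb of coding sequence (right), 1 library per bar. The light-chain stack reaches 263 in IMP1-/- labelled RPF, below the heavy chain at 423, and 512 in wild-type RPF, below the heavy chain at 587, whereas in RNA the stack stands above the heavy chain in both genotypes.

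Set per length, the light chains SLC7A5, SLC7A6, SLC7A7, SLC7A8 and SLC7A11 together had 0.622 footprints for each SLC3A2 footprint in IMP1-/- labelled cells and 0.872 in wild-type cells. In RNA the same ratio was 1.62 in IMP1-/- labelled and 2.14 in wild-type cells with transcript lengths, and 4.31 in IMP1-/- labelled and 5.496 in wild-type cells with coding lengths, so it was lower in the IMP1-/- labelled library on each scale while its level depended on the length used. SLC7A5 made up 74.0% of the light-chain footprints per kb in IMP1-/- labelled cells and 69.2% in wild type. The share of SLC7A8 was 15.3% in IMP1-/- labelled and 24.6% in wild-type cells, and that of SLC7A11 was 6.75% in IMP1-/- labelled and 2.44% in wild-type cells. The kidney and brain light chains SLC7A9, SLC7A10 and SLC7A13 were at 0.

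Of the 3 cationic carriers of SLC7 that were measured, SLC7A4 was called higher in both kinds, and SLC7A1 and SLC7A2 were called in neither. SLC7A1 had 1863 reads in IMP1-/- labelled RNA and 1781 in wild-type RNA (0.22, 0.12 to 0.31), and 1282 footprints in IMP1-/- labelled and 1209 in wild-type cells (0.08, −0.03 to 0.20). SLC7A4, which belongs to this branch by sequence and has no established amino acid transport of its own, was higher in both kinds. It had 55 RNA reads in IMP1-/- labelled and 28 in wild-type cells (1.11, 0.44 to 1.84) and 67 footprints in IMP1-/- labelled and 26 in wild-type cells (1.35, 0.69 to 2.08). SLC7A2, an inducible carrier of arginine, had 2998 reads in IMP1-/- labelled RNA and 2515 in wild-type RNA, and 35 footprints in IMP1-/- labelled and 37 in wild-type cells. Its RNA change of 0.40 (0.33 to 0.48) was under 1.5-fold, and its RPF interval included no change (−0.08, −0.79 to 0.63). SLC7A14 had at most 5 reads in any library.

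Of the 19 SLC6 genes, carriers that couple uptake to sodium and chloride, 3 were measured. SLC6A9, a glycine carrier, had 106 reads in IMP1-/- labelled RNA and 47 in wild-type RNA, 2.49-fold higher (1.32, 0.82 to 1.85). It had 72 footprints in IMP1-/- labelled and 32 in wild-type cells, 2.23-fold higher (1.16, 0.55 to 1.82). The taurine carrier SLC6A6 had 196 RNA reads in IMP1-/- labelled and 254 in wild-type cells (−0.22, −0.50 to 0.05) and 105 footprints in IMP1-/- labelled and 138 in wild-type cells (−0.39, −0.78 to −0.02). The creatine carrier SLC6A8 had 576 RNA reads in IMP1-/- labelled and 797 in wild-type cells (−0.32, −0.47 to −0.16) and 90 footprints in IMP1-/- labelled and 98 in wild-type cells (−0.12, −0.55 to 0.30). Neither was called, and 25.1% of the 28-base stretches of SLC6A8 also occur in other transcripts, among them the pseudogene SLC6A10P. The carriers of neutral and imino acids in the brush border and mucosa were sparse: SLC6A19 had at most 2 reads in any library and SLC6A14 at most 4. SLC6A20, the proline carrier of that group, had 28 reads in IMP1-/- labelled RNA and 7 in wild-type RNA (2.08, 0.92 to 3.59), under the minimum, with 2 footprints in each genotype. The serotonin carrier SLC6A4 had 18 RNA reads in IMP1-/- labelled and 9 in wild-type cells, and every other SLC6 gene had at most 10 reads in a library.

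SLC36 includes proton-coupled carriers of small neutral amino acids, known from lysosomes and the brush border. SLC36A1 had 31 reads in IMP1-/- labelled RNA and 43 in wild-type RNA (−0.31, −1.04 to 0.38), and SLC36A4 had 80 RNA reads in IMP1-/- labelled and 65 in wild-type cells (0.45, −0.04 to 0.95), so neither was called. SLC36A1 had 18 footprints in IMP1-/- labelled and 7 in wild-type cells, and SLC36A4 had 34 footprints in IMP1-/- labelled and 14 in wild-type cells, all under the minimum and more numerous in the IMP1-/- labelled library for each gene. The family had 52 footprints in IMP1-/- labelled and 22 in wild-type cells in sum, a ratio of 2.33 (1.41 to 4.09). No SLC36 gene reached the minimum in RPF and the wild-type sum was low, so this ratio is a description only. In RNA the family had 118 reads in IMP1-/- labelled and 124 in wild-type cells, a ratio of 1.06 (0.814 to 1.37). SLC36A2 and SLC36A3 had at most 16 reads in a library.

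In SLC38, the sodium-coupled neutral carriers, the 2 measured system A members were each called lower in 1 kind of library. SLC38A2 (chromosome 12, 46358189 to 46372867, minus strand), known to be induced when amino acids are withdrawn, had 937 reads in IMP1-/- labelled RNA and 1678 in wild-type RNA (−0.69, −0.81 to −0.57). It had 1021 footprints in IMP1-/- labelled and 1211 in wild-type cells (−0.25, −0.37 to −0.13), a ratio under 1.5-fold. SLC38A1 (chromosome 12, 46187801 to 46268997, minus strand), a glutamine carrier of proliferating cells, had 803 RNA reads in IMP1-/- labelled and 953 in wild-type cells, with an interval that included no change (−0.10, −0.23 to 0.04). It had 429 footprints in IMP1-/- labelled and 645 in wild-type cells, 1.504-fold lower (−0.59, −0.77 to −0.41), a call that was lost with totals without the MTRNR2L genes. The 2 neighbouring system A genes, 89.2 kb apart, thus differed in which measure was called lower, and the ratio of their combined counts was 0.735 in RNA (0.691 to 0.781) and 0.781 in RPF (0.729 to 0.837). SLC38A5, a system N carrier of glutamine, serine and glycine, had 437 RNA reads in IMP1-/- labelled and 366 in wild-type cells (0.41, 0.20 to 0.61) and 701 footprints in IMP1-/- labelled and 474 in wild-type cells (0.56, 0.39 to 0.74), above no change and under 1.5-fold.

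Of the SLC38 members placed on lysosomes or other internal membranes, SLC38A7 was called higher, having passed the minimum in both kinds only through the IMP1-/- labelled libraries, and SLC38A9 was called lower in RPF. SLC38A7, which exports glutamine and asparagine from lysosomes, had 50 reads in IMP1-/- labelled RNA and 15 in wild-type RNA, 3.62-fold higher (1.86, 1.03 to 2.83). It had 51 footprints in IMP1-/- labelled and 19 in wild-type cells, 2.64-fold higher (1.40, 0.64 to 2.27). SLC38A9, the lysosomal arginine sensor upstream of mTORC1, had 43 footprints in IMP1-/- labelled and 74 in wild-type cells (−0.78, −1.36 to −0.22), and 12 RNA reads in IMP1-/- labelled and 27 in wild-type cells, under the minimum. SLC38A10 had 94 RNA reads in IMP1-/- labelled and 129 in wild-type cells, and 85 footprints in IMP1-/- labelled and 79 in wild-type cells, and neither interval excluded no change (−0.30, −0.70 to 0.09, and 0.10, −0.35 to 0.57). SLC38A6 had 7 RNA reads in IMP1-/- labelled and 11 in wild-type cells, and 21 footprints in IMP1-/- labelled and 6 in wild-type cells. SLC38A4 and SLC38A8 had at most 3 reads in any library.

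The SLC43 carriers of branched-chain and other large neutral amino acids work without sodium or a heavy chain, and both measured in RNA were higher. SLC43A1 had 140 reads in IMP1-/- labelled RNA and 92 in wild-type RNA (0.75, 0.37 to 1.15), and 110 footprints in IMP1-/- labelled and 61 in wild-type cells (0.84, 0.39 to 1.33). SLC43A2 had 71 RNA reads in IMP1-/- labelled and 42 in wild-type cells (0.90, 0.34 to 1.495) and 45 footprints in IMP1-/- labelled and 30 in wild-type cells, whose interval included no change (0.58, −0.11 to 1.3). SLC43A3, which carries purine nucleobases rather than amino acids, had 42 footprints in IMP1-/- labelled and 55 in wild-type cells (−0.39, −1.005 to 0.22) and 14 RNA reads in IMP1-/- labelled and 33 in wild-type cells. A protein-coding annotation, AP000781.2, shares 51.5% of the SLC43A3 transcript on the same strand, so its counts are uncertain.

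Translational efficiency (TE) asks whether footprints changed more than RNA. Its change is the RPF change minus the RNA change, a value with no test, since 4 libraries leave 0 residual degrees of freedom. For 20 of the 22 symbols measured in both kinds TE was not called. SLC1A1 was called higher (1.42, 0.32 to 2.52), on the 20 to 41 reads per library given above, and SLC7A6OS was called lower (−2.26, −3.19 to −1.33). SLC1A1 passed the minimum in RNA only through the wild-type library and in RPF only through the IMP1-/- labelled one. SLC7A6OS, which is not a transporter, passed in RPF only through the wild-type library. With at least 25 reads in each library, a count added after seeing the data, 0 of 19 symbols were called in either direction. Of the 8834 such genes, 14.65% were called higher and 13.19% lower. Over all 9598 genes measured in both kinds 15.7% were called higher and 13.9% lower, and the median was 0.03 against −0.09 over the 22 symbols. SLC1A5 had a TE change of 0.13 (0.03 to 0.23), so its footprints and RNA were lower by nearly the same factor. In the CD98 system, the TE changes of SLC3A2 at −0.21 (−0.34 to −0.09), SLC7A5 at −0.26 (−0.38 to −0.14) and SLC7A8 at −0.36 (−0.63 to −0.09) lay below no change by less than 1.5-fold. The intervals of the light chains SLC7A6 at −0.04 (−0.59 to 0.51) and SLC7A11 at 0.11 (−0.37 to 0.59) included no change. The system A pair took opposite signs, 0.44 (0.28 to 0.61) for SLC38A2 and −0.49 (−0.71 to −0.27) for SLC38A1.

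**Figure D4:**
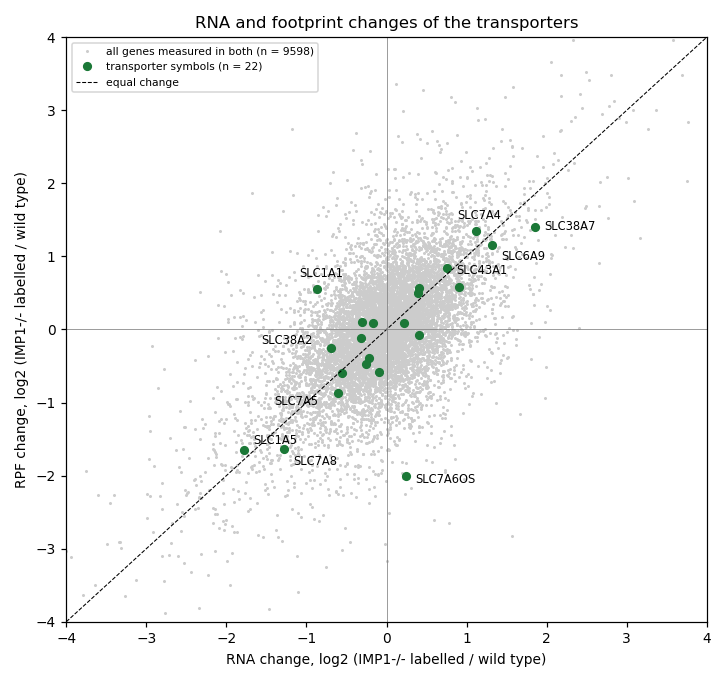
RPF change against RNA change, both log2 of IMP1-/- labelled over wild type, for the 22 transporter symbols measured in both kinds (green) and all 9598 genes (grey, cropped at 4 on either side), 1 library per group. Most of the green points lie near the dashed line of equal change, from SLC1A5 and SLC7A8 at lower left to SLC38A7 at upper right, while SLC1A1 lies above it and SLC7A6OS below.

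RNA and RPF changes had the same sign for 17 of the 22 symbols (77.3%, against 67.9% of all 9598 genes), with a Pearson correlation of 0.747 against 0.627. These are descriptions across genes that share the same 4 libraries. The 4 symbols called higher in both kinds were 18.2% of the 22, against 7.89% of all genes measured in both, and the 3 called lower in both were 13.6%, against 9.53%. Among the 4 is SLC38A7, which passed the minimum in both kinds only through the IMP1-/- labelled libraries, so the share of 18.2% rests in part on that filter. SLC43A2 was called higher in RNA alone, and SLC1A1 and SLC38A2 lower in RNA alone. SLC7A6, SLC7A6OS and SLC38A1 were called lower in RPF alone, and 9 symbols were called in neither.

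Within each genotype the ratio of RPF CPM to RNA CPM ranged widely between transporters. SLC7A2 stood at the bottom, with 0.0155 in IMP1-/- labelled cells (percentile 0.0729 of the 9598 genes) and 0.0219 in wild-type cells (percentile 0.0834). SLC7A2 shares 0.394% of its 28-base stretches with other transcripts. SLC3A2 stood at the top, with 2.71 in IMP1-/- labelled cells (percentile 92.5) and 3.18 in wild-type cells (percentile 97.4). SLC1A5 had 2.005 in IMP1-/- labelled and 1.86 in wild-type cells, and SLC38A5 had 2.09 in IMP1-/- labelled and 1.90 in wild-type cells. SLC7A5 was at 0.356 in IMP1-/- labelled and 0.430 in wild-type cells, SLC7A11 at 0.314 in IMP1-/- labelled and 0.294 in wild-type cells, and SLC6A8 at 0.205 in IMP1-/- labelled and 0.181 in wild-type cells. The ratio differed most between genotypes for SLC7A6OS and SLC1A1, the same symbols that were called in TE. SLC1A1 had 20 to 41 reads per library, and SLC7A6OS passed the minimum in RPF only through the wild-type library. The ratio depends on transcript length if RNA was counted over whole transcripts and footprints over coding sequence, and the labels do not say which region was counted. SLC7A6OS had 0.350 in IMP1-/- labelled cells and 1.70 in wild type, and SLC1A1 had 2.01 in IMP1-/- labelled cells and 0.760 in wild type.

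**Figure D5:**
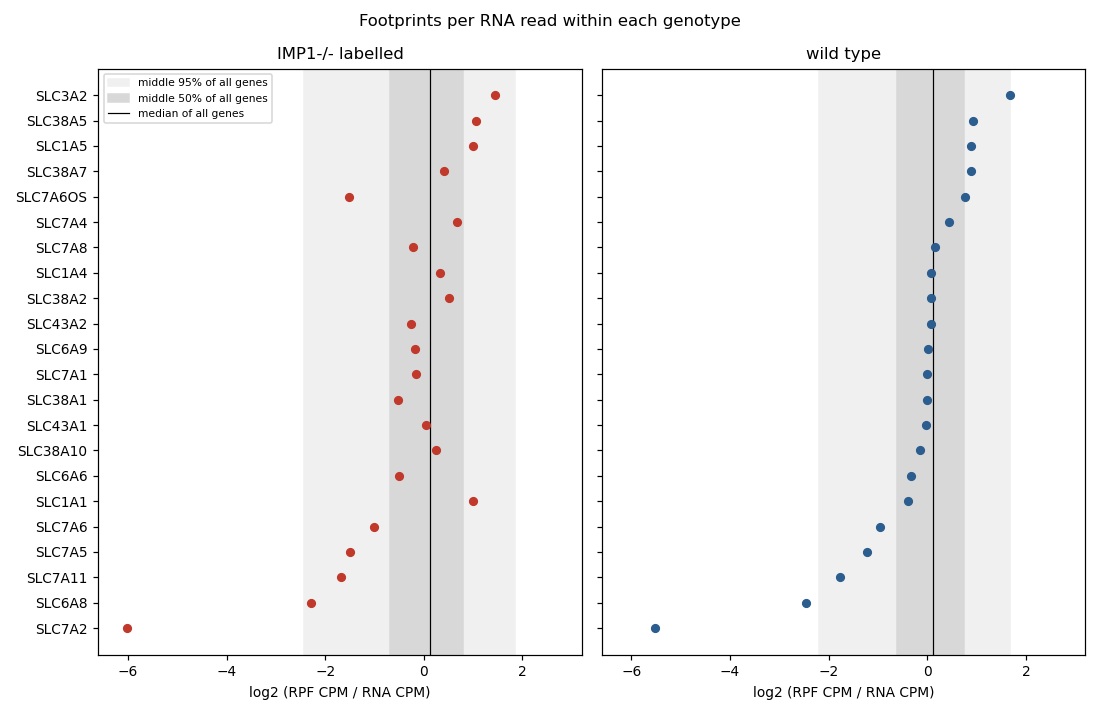
Footprints per RNA read, log2 of RPF CPM over RNA CPM, of the 22 symbols measured in both kinds in IMP1-/- labelled cells (left) and wild-type cells (right), 1 library of each kind per panel, in the order of the wild-type values. Shading marks the middle 50% and 95% of all 9598 genes. SLC7A2 lies left of the shaded range, at −6.02 in IMP1-/- labelled and −5.51 in wild-type cells, and SLC3A2 near its right edge, at 1.44 in IMP1-/- labelled and 1.67 in wild-type cells.

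Amino acid carriers outside these families, such as the mitochondrial aspartate, ornithine and glycine carriers and the lysosomal cystine exporter, were taken as a list of 26. Of 16 measured in RNA, 2 were called higher (12.5%, against 16.2% of all genes) and 4 lower (25%, against 17.8%), with a median of −0.35. Of 15 measured in RPF, 2 were called higher (13.3%, against 19.0%) and 4 lower (26.7%, against 20.1%), with a median of −0.25. SLC25A12, a mitochondrial aspartate and glutamate carrier, had 75 RNA reads in IMP1-/- labelled and 194 in wild-type cells and was called lower. The ornithine carrier SLC25A15 was called lower in both kinds, with 79 RNA reads in IMP1-/- labelled and 154 in wild-type cells, and 43 footprints in IMP1-/- labelled and 98 in wild-type cells. SLC15A4, a lysosomal carrier of histidine and peptides, was called higher in RNA, with 127 RNA reads in IMP1-/- labelled and 55 in wild-type cells, and had 65 footprints in IMP1-/- labelled and 68 in wild-type cells. SLC16A10, an aromatic amino acid carrier, had 16 footprints in IMP1-/- labelled and 44 in wild-type cells and was called lower in RPF. It passed the minimum there only through the wild-type library, and the shares of this list include such genes.

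Among enzymes of amino acid metabolism, 28 were measured in each kind. In RNA 1 was called higher (3.57%, against 16.2% of all genes) and 5 lower (17.9%, against 17.8%), with a median of 0.05. In RPF 4 were called higher (14.3%, against 19.0%) and 1 lower (3.57%, against 20.1%), with a median of 0.12. ASS1, the argininosuccinate synthase that makes arginine, was called higher in both kinds, with 1347 RNA reads in IMP1-/- labelled and 942 in wild-type cells (0.67), and 2937 footprints in IMP1-/- labelled and 1286 in wild-type cells (1.19). ASL, the next enzyme of that route, had 223 footprints in IMP1-/- labelled and 107 in wild-type cells and was 2.08-fold higher in RPF. BCAT2, the mitochondrial branched-chain aminotransferase, had 93 RNA reads in IMP1-/- labelled and 352 in wild-type cells, 3.40-fold lower, and 329 footprints in IMP1-/- labelled and 475 in wild-type cells. Glutamine synthetase GLUL was 1.67-fold lower in RNA, with 343 RNA reads in IMP1-/- labelled and 636 in wild-type cells.

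Genes of the ATF4 and amino acid response other than transporters had 13 of 33 measured called higher in RNA (39.4%, against 16.2% of all genes) and 1 lower (3.03%, against 17.8%), with a median of 0.44. In RPF 17 of 31 were called higher (54.8%, against 19.0%) and 3 lower (9.68%, against 20.1%), with a median of 0.60. The list, like the other lists here, was chosen with earlier results of these data known, so these shares are a description only. ASNS, asparagine synthetase, had 5551 RNA reads in IMP1-/- labelled and 1880 in wild-type cells, 3.28-fold higher, and 11264 footprints in IMP1-/- labelled and 3363 in wild-type cells, 3.35-fold higher. CEBPB, a transcription factor that acts with ATF4, had 815 footprints in IMP1-/- labelled and 295 in wild-type cells (1.46, 1.27 to 1.66). VLDLR, a lipoprotein receptor, was called lower in both kinds, with 53 RNA reads in IMP1-/- labelled and 172 in wild-type cells, and 21 footprints in IMP1-/- labelled and 78 in wild-type cells. In RPF VLDLR passed the minimum only through the wild-type library. In TE 3 of 31 were called higher (9.68%, against 15.7% of all genes) and 2 lower (6.45%, against 13.9%). The 2 lower were the transcription factors ATF3 and ATF5. ATF3 had 72 footprints in IMP1-/- labelled and 142 in wild-type cells, a TE change of −1.05 (−1.61 to −0.48). ATF5 had 36 footprints in IMP1-/- labelled and 98 in wild-type cells, a TE change of −1.20 (−1.92 to −0.48).

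Of the genes that relay amino acid supply to mTORC1, 5 of 32 measured were called higher in RNA (15.6%, against 16.2% of all genes) and 2 lower (6.25%, against 17.8%), with a median of −0.10. In RPF 8 of 31 were called higher (25.8%, against 19.0%) and 4 lower (12.9%, against 20.1%), with a median of 0.23. LARS, leucyl-tRNA synthetase, was called higher in both kinds, with 1370 RNA reads in IMP1-/- labelled and 873 in wild-type cells, and 2427 footprints in IMP1-/- labelled and 1179 in wild-type cells. The Ragulator subunit LAMTOR3 had 101 RNA reads in IMP1-/- labelled and 115 in wild-type cells, and 106 footprints in IMP1-/- labelled and 35 in wild-type cells, and was called higher in RPF. The Rag GTPase RRAGD had 345 RNA reads in IMP1-/- labelled and 459 in wild-type cells, and 40 footprints in IMP1-/- labelled and 118 in wild-type cells, and was called lower in RPF. In TE 5 of 31 were called higher (16.1%, against 15.7% of all genes) and 5 lower (16.1%, against 13.9%). MTOR itself had 578 RNA reads in IMP1-/- labelled and 767 in wild-type cells. Its footprints numbered 551 in IMP1-/- labelled and 300 in wild-type cells, a TE change of 1.13 (0.88 to 1.39). TSC2 was called lower in TE (−1.09, −1.47 to −0.72), with 172 footprints in IMP1-/- labelled and 245 in wild-type cells.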

How the data were processed

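Per the labels' protocols, each library came from 3 pooled culture plates, footprints of 18 to 34 nt and RNA fragments up to 50 nt were selected, linkers carried molecular identifiers, and PCR ran for 15 cycles. Named in the submitters' processing notes are the build GRCh38 and the tools HISAT2 2.1.0, Bowtie 1.1.2 and cutadapt 1.10. The counted region, the use of strand, the handling of reads with several matches and any collapsing of identifiers were not given in these sources. The authors deposited unnormalised whole-number read counts for 1 Ensembl transcript per gene, and 19176 of 19192 transcripts, all 60 symbols included, were found in GENCODE 29 (Ensembl 94), which gave coordinates and lengths. Promoters came from RefSeq (GRCh38.p14).

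Libraries of a kind were scaled by the trimmed mean of M values (edgeR 4.0.16, R 4.3.3), giving IMP1-/- labelled to wild-type library size ratios of 0.900 for RNA and 1.00 for RPF. Median-of-ratios size factors (DESeq2 1.42.0) and total counts, with and without the MTRNR2L genes, were alternatives. The remaining calculations ran in pandas 2.3.3, SciPy 1.17.1 and NumPy 2.4.6 under Python 3.11.15. Ratios used a prior count of 0.5. RNA and RPF intervals are exact conditional (Clopper-Pearson), TE intervals come from the sum of reciprocal counts, and level intervals are exact Poisson. Reads after PCR are not independent molecules, so all intervals and floors cover counting error only. No p-value is given, since each group has 1 library, and no paired design exists. The calculation was tested on simulated data. A criterion on the coverage of the intervals was missed by 1 small simulated group in the first run, and was applied after that was seen to pooled groups in its place, at other limits, with the calculation unchanged. Named genes are IGF2BP1, every symbol with at least 50 reads in a kind, and up to 4 genes per related list and comparison, ranked by the interval bound nearest to no change, of which some are printed. The genes described and the lists were chosen with earlier results of these data known, and some genes are in 2 lists. No protein sequence is shown.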

Additional observations from a re-analysis of the deposited data

How the results depend on the processing

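Counts of calls depended on the minimum of reads and on the fold. At a minimum of 200 reads the calls were 1 higher and 4 lower in RNA, 0 higher and 4 lower in RPF, and 0 higher and 0 lower in TE. At 20 reads RPF had 7 called higher and TE 2 higher and 2 lower, and with no minimum RPF had 7 higher and TE 3 higher and 2 lower. The threshold of 2-fold left 3 higher and 4 lower in RNA and 4 lower in RPF. Without SLC7A6OS, an alternative chosen after seeing the data, TE had 0 called lower. Without the symbols that passed the minimum through 1 library, also chosen after seeing the data, RNA had 4 called lower and TE 0 higher and 0 lower. The cause of these moves is the smaller or larger set of genes, or the stricter fold. The place of SLC1A5 in wild-type RNA per length was 1 with transcript length and 2 with coding length. The median TE change of the symbols was −0.09 at 50 reads and 0.03 at 20 reads. Of the 26 single-symbol changes called, under the 5 alternatives of scaling, prior count and fold, 117 of 130 values kept direction and call, 13 lost the call and 0 reversed; a read minimum cannot alter the call of a symbol that stays above it. SLC7A6 and SLC38A1 lost the RPF call with totals without the MTRNR2L genes (−0.58 each), SLC7A6 also with a prior count of 2, and the other losses came at 2-fold. No scaling moved the median of all genes by more than 0.1. No paired analysis was possible because each group has 1 library, and for the same reason no replicate could be left out.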

Other observations

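Among transporter symbols whose genes lie within 1 Mb of each other there were 12 pairs. SLC7A7 and SLC7A8, 309 kb apart on chromosome 14, were both called lower in RNA, SLC7A7 with 5 RNA reads in IMP1-/- labelled and 62 in wild-type cells, and SLC7A8 with 375 RNA reads in IMP1-/- labelled and 1015 in wild-type cells. SLC7A7 passed the minimum only through the wild-type library. The overlapping SLC7A6 and SLC7A6OS were both called lower in RPF, where reads of their shared bases cannot be told apart unless strand was used. SLC43A1 and SLC43A3, 57.6 kb apart on chromosome 11, differed: SLC43A1 was called higher in both kinds, whereas SLC43A3 had 14 RNA reads in IMP1-/- labelled and 33 in wild-type cells, under the minimum, and was not called in RPF. SLC38A1 and SLC38A2 on chromosome 12 were each called lower in 1 kind, RPF for SLC38A1 and RNA for SLC38A2. Of the pairs in SLC6 and the SLC36A2 and SLC36A3 pair, no member reached the minimum in either kind.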
